A study of Mus musculus with 14 samples.

Results

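The genes that encode collagen chains were taken as all rows whose symbol is Col, a number, the letter a and a number, as in Col1a1. The rule found 44 genes of the 24346 in the count table, and all 44 also had length-scaled values. They were sorted by the form of the protein into 11 fibrillar chains, 9 network chains, 9 FACIT chains, 4 transmembrane chains and 11 other chains. A FACIT is a fibril-associated collagen with interrupted helices, which sits on the surface of a fibril made by other collagens.

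Collagens are secreted proteins in which chains wind around each other into a helix, and the chains of a type are often products of several genes. Osteoblasts, the cells that build bone, lay down a matrix that is mostly type I collagen, with type III and type V chains in the same fibrils. Cells cross-link and trim the secreted molecules outside the cell, and mineral is deposited on the resulting fibrils.

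The cells were MC3T3-E1, a mouse line of osteoblast precursors grown from calvaria, sequenced as polyadenylated RNA. Each library belonged to a control or to a MACF1 knockdown condition, at day 0, 3, 5 or 10. MACF1 is a cytoskeletal linker that binds both actin and microtubules. Days 0, 3 and 5 had 2 libraries per condition, which the study calls biological replicates, and day 10 had 1, giving 14 libraries in 8 groups. The sample titles mark the knockdown libraries as sh and the controls as NC, and the sources used here say no more on how the knockdown was made. What event the days count from and whether the libraries of a pair came from separate cultures is not given there. All p-values therefore cover the spread between these libraries only, and that spread may be technical.

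Library totals ran from 8044687 to 23301514 counts. Macf1 itself did not pass the test as lower in the libraries labelled knockdown. In CPM, the count scaled to a library total of 1e6, it lay at 154.3 and 159.7 for control on day 0 against 157.2 and 163 under the label. Day 3 had 188.8 and 55.2 CPM against 171.7 and 169.8 CPM, and day 5 had 176.2 and 204.5 CPM against 168.9 and 181.1 CPM. The single libraries of day 10 held 195.5 CPM in control and 129.3 CPM under the label. The averaged log2 fold change of Macf1 was 0.13 (SE 0.24, edgeR adjusted p = 0.724), and it was -0.08 (SE 0.06, edgeR adjusted p = 0.274) without control day 3 replicate 2, the library at 55.2 CPM, and 0.51 (SE 0.06, edgeR adjusted p = 2.42e-05) without replicate 1 of that pair. The label is used below as the name of the libraries and not as a measured state. The library control day 3 replicate 2 stood apart. It had the lowest total, 19.6% of its counts on ribosomal protein genes against 5.66% to 11.2% in the others, and a correlation of 0.928 with its partner against 0.991 to 0.993 in the other pairs. Collagen genes took 1.55% of its counts, the lowest share, against 1.59% to 2.88% in the other 13. Ribosomal protein genes took 5.66% to 7.90% of the counts in the libraries labelled knockdown and 8.16% to 11.2% in the control libraries other than that one, and the part of this in the results was not tested. Of 5 muscle markers 4 were in the table, and their sum was 6.26 to 13.2 CPM under the knockdown label and 1.16 to 5.29 CPM in control, with Myog and Myh3 at or under 5 reads in a library each while Des reached 232 reads, 11.4 CPM, and Acta1 62 reads, 3.75 CPM; its part in the results was not tested either. Markers of macrophages and adipocytes summed to at most 1.76 and 2.50 CPM. In bulk RNA, fewer cells of a kind and less RNA per cell cannot be told apart.

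Levels between genes were compared as RPKM, reads per kilobase of gene and per 1e6 mapped reads, and levels of 1 gene between libraries as CPM scaled with TMM factors. Ranks, shares and ratios between genes depend on the gene lengths used for the deposited RPKM, which were not checked. Of the 44 genes, 24 had a mean of at least 1 RPKM over the 14 libraries, 20 lay under it, and 6 had at least 100 RPKM. Those 6 were Col1a2, with a mean of 1210 RPKM, Col1a1 with 789, Col6a1 with 504, Col3a1 with 293, Col6a2 with 239.8 and Col5a2 with 155. Col16a1, Col5a1, Col12a1 and Col6a3 followed at 58.7 to 86.6 RPKM. The lowest were Col4a4 and Col19a1, with a single read each in all libraries together.

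Fibrillar chains held most of the summed collagen RPKM in every library, from 58.9% to 75.3% with a median of 73.1%. The other chains, nearly all type VI, held 17.1% to 33.6%. FACIT chains held 2.72% to 4.88% and network chains 2.32% to 5.08%. The transmembrane chains stayed at or under 0.0171% in each library. Col1a1, Col1a2 and Col3a1 alone made 50.4% to 67.3% of the sum. Without these 3 genes the fibrillar share averaged 23.1% in place of 70.4%.

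**Figure D1:**
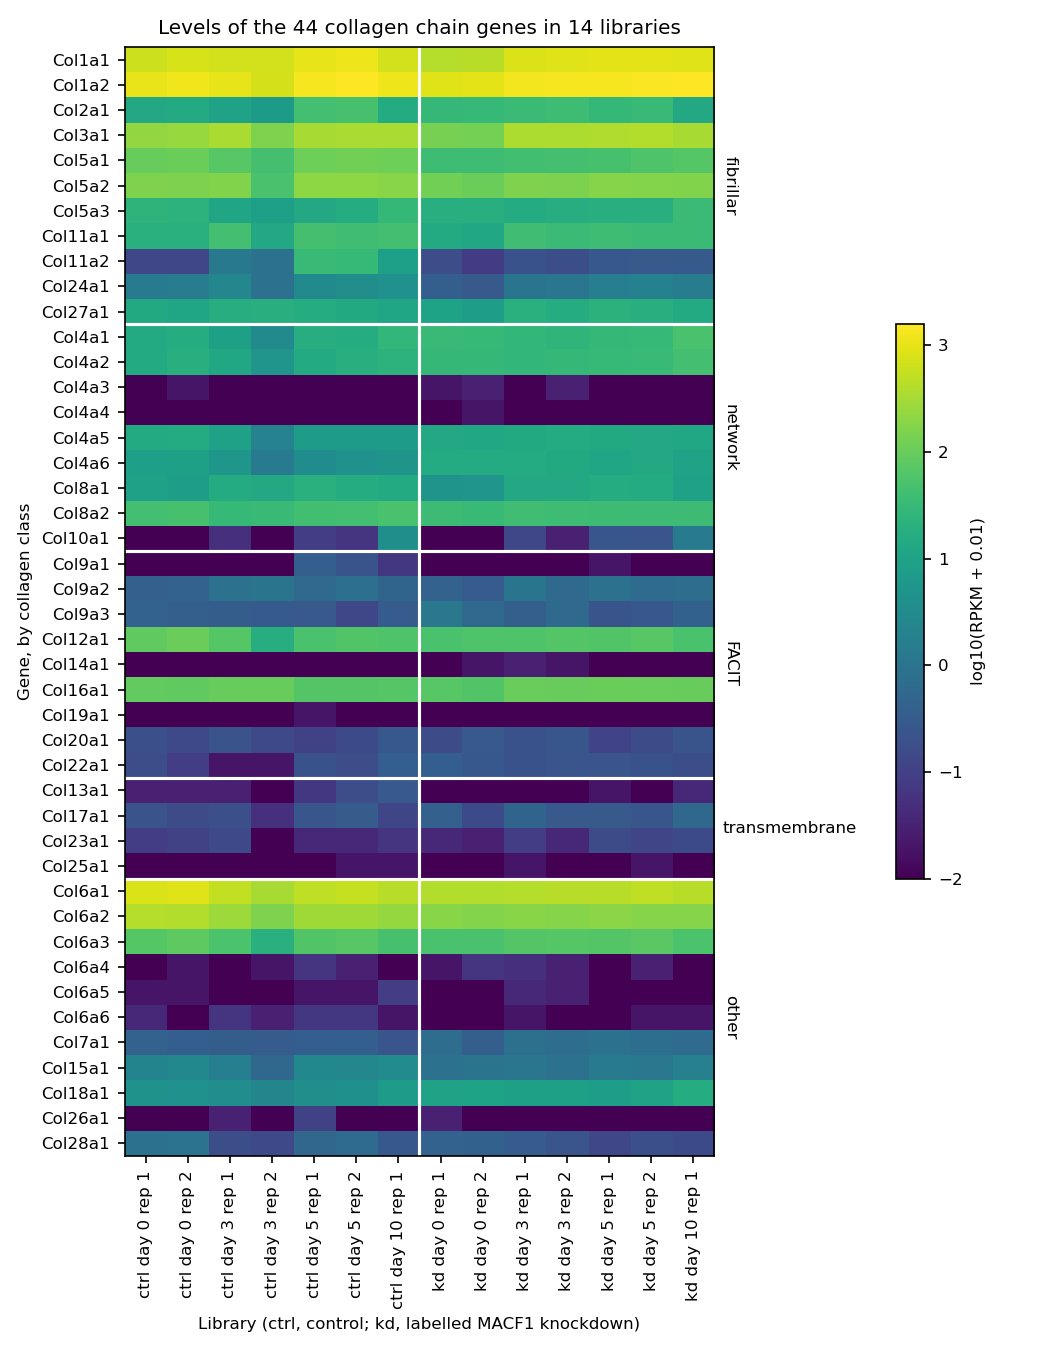
RPKM of the 44 collagen chain genes (rows, by class) in 14 libraries (columns; ctrl, control; kd, labelled knockdown), coloured on a log10 scale after adding 0.01. Col1a1, Col1a2, Col3a1, Col6a1 and Col6a2 are bright in all 14 columns, and the Col11a2 row runs from 0.07 to 33.5 RPKM.

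Between the conditions the shares of fibrillar, network and other chains differed most at day 0, and the share of FACIT chains differed most at day 5. The fibrillar share was 58.9% and 60.7% in the control libraries of day 0 and 64.7% and 66.4% in those labelled knockdown. Col6a1 and Col6a2 together made 31.7% and 30.0% of the summed collagen RPKM in the control libraries of day 0, against 15.4% to 23.03% in the other 12 libraries. The summed collagen level was 3822 and 4258 RPKM in control at day 0 and 2604 and 2628 RPKM in the libraries labelled knockdown. By day 5 it was 4247 and 4647 RPKM in control and 4083 and 4297 RPKM under the knockdown label, so the conditions then overlapped. Network chains made 4.80% and 5.08% of the sum in the libraries labelled knockdown at day 0, the highest shares of the 14, and 2.73% and 2.81% in control. FACIT chains made 4.62% and 4.53% in control at day 0, against 4.77% and 4.60% under the knockdown label. At day 5 they made 2.73% and 2.72% in control, against 4.25% and 4.12% under the label. These shares are descriptions with no test.

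**Figure D2:**
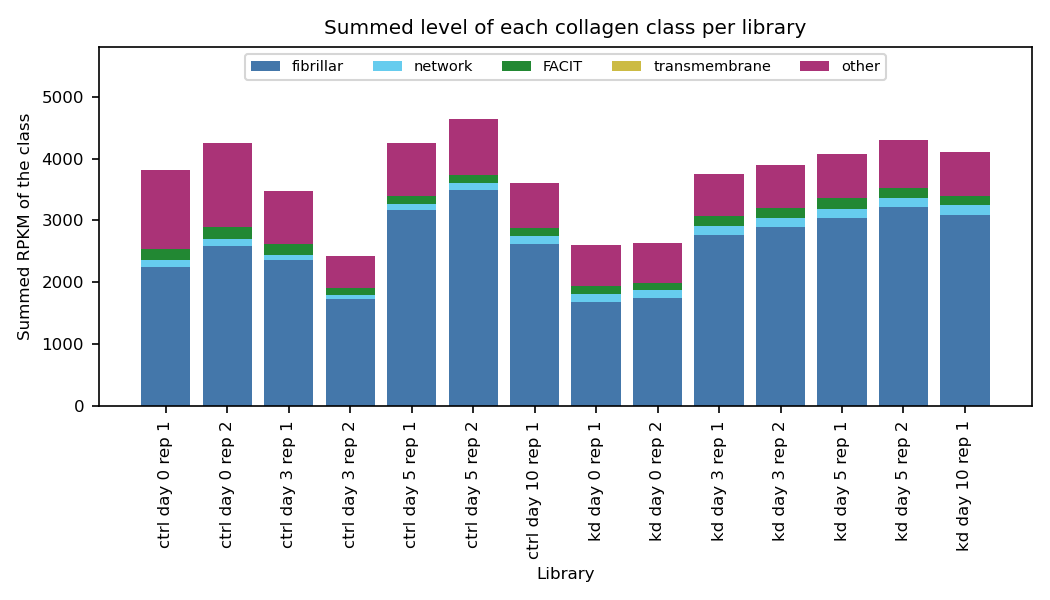
Summed RPKM of each collagen class (stacked bars) in each library (ctrl, control; kd, labelled knockdown). The 2 libraries labelled knockdown at day 0 reach 2604 and 2628 RPKM and control day 3 replicate 2 reaches 2418 RPKM, while the other 11 lie between 3469 and 4647 RPKM.

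A gene was tested where 2 or more libraries held 10 or more of its reads, which left 13130 genes, 34 of them collagen genes. The other 10 collagen genes were Col4a3, Col4a4, Col6a4, Col6a5, Col6a6, Col13a1, Col14a1, Col19a1, Col25a1 and Col26a1, with 1 to 39 reads each over all libraries. Fold changes are log2 ratios of the libraries labelled knockdown over control, tested with edgeR's quasi-likelihood test and Benjamini-Hochberg adjustment over all 13130 genes at a threshold of 0.05. The main comparison averaged the differences of days 0, 3 and 5.

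In that averaged comparison 7 of the 34 collagen genes were higher under the knockdown label, 8 were lower and 19 did not pass the test. Over all genes tested the share called was 26.9% (15% higher and 11.9% lower), against 44.1% of the collagen genes. The median log2 fold change of the 34 was -0.06, beside 0.00 over all genes. Among fibrillar chains 1 of 11 was higher and 3 were lower. Among the 7 network chains tested 3 were higher and 1 was lower, and of the 7 FACIT chains tested 1 was higher. Neither of the 2 transmembrane chains tested passed. Of the 7 other chains tested 2 were higher, 4 lower and 1 did not pass. Without control day 3 replicate 2 the averaged comparison called 21 collagen genes, 8 higher and 13 lower, and the share over all genes then was 47.1% (24.9% higher and 22.2% lower). Without replicate 1 of that pair it also called 21, against 57.9% of all genes.

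**Figure D3:**
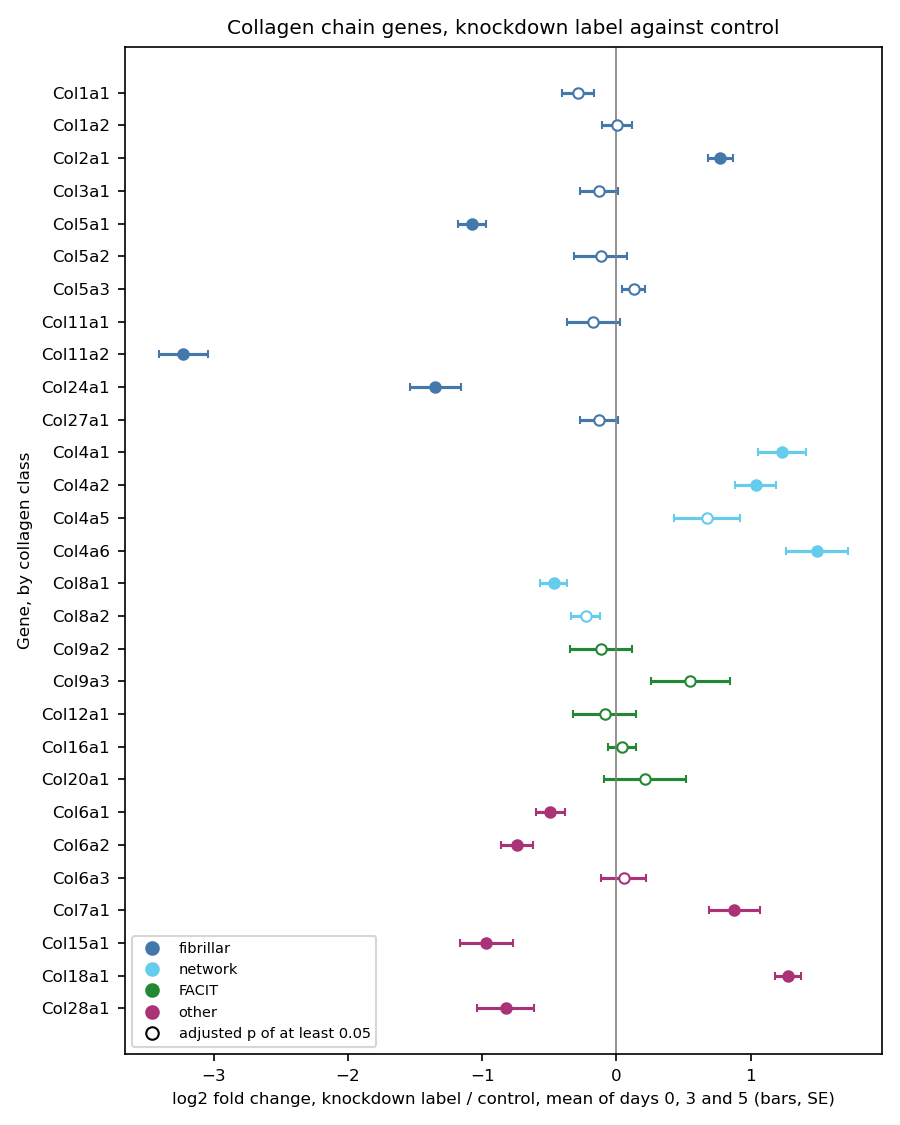
Averaged log2 fold change of the libraries labelled knockdown over control for collagen genes, by class, with bars of 1 SE; filled points passed the adjusted p of 0.05. Col9a1, Col10a1, Col17a1, Col22a1 and Col23a1 are left out because a library of theirs held 3 or fewer reads; Col11a2 lies farthest to the left at -3.23 and Col4a6 farthest to the right at 1.49.

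The main bone collagens did not pass the averaged test. Col1a1 (chr11:94936224-94953042) and Col1a2 (chr6:4504814-4541544) encode the chains of type I collagen, the main protein of bone matrix. Col1a1 was at 4139 and 4874 CPM on day 0, 4441 and 5584 on day 3, 6451 and 7196 on day 5 and 4492 on day 10 in control. Under the knockdown label it was at 2559.5 and 2726 CPM on day 0, 5201 and 5252 on day 3, 6044 and 6260.1 on day 5 and 5666 on day 10. The libraries labelled knockdown were lower on days 0 and 5, overlapped control on day 3 and were higher in the single pair of day 10. The averaged log2 fold change was -0.29 (SE 0.12, edgeR adjusted p = 0.102). This value passed the test without control day 3 replicate 2, at -0.23 (SE 0.07, edgeR adjusted p = 0.0219), without control day 3 replicate 1, at -0.34 (edgeR adjusted p = 0.00199), and with the replicate number as a block, at -0.28 (edgeR adjusted p = 0.0451). It also passed without all day 3 libraries, at -0.46 (edgeR adjusted p = 0.00178), and in DESeq2, at -0.30 (DESeq2 adjusted p = 0.0162).

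Col1a2 was at 6143 and 6881 CPM on day 0, 5736 and 5269 on day 3, 7921 and 8563 on day 5 and 6933 on day 10 in control. Under the knockdown label it was at 5062 and 5279 CPM on day 0, 6989 and 7131 on day 3, 7840.1 and 8502 on day 5 and 9218 on day 10. The averaged log2 fold change was 0.00 (SE 0.11, edgeR adjusted p = 0.981), and its sign depended on the setting. It was lower under the label on day 0, higher on day 3 and overlapped control on day 5. Col3a1 (chr1:45311538-45349706) encodes type III collagen, which joins type I in fibrils of soft tissue and young bone. It was at 1404 and 1425 CPM on day 0, 2066 and 1166 on day 3, 2042 and 2059.8 on day 5 and 2072 on day 10 in control. It was at 782 and 732 CPM on day 0, 2099 and 2041 on day 3, 2263 and 2309.9 on day 5 and 2074 on day 10 under the knockdown label, lower than control on day 0, overlapping on day 3 and higher on day 5. The averaged log2 fold change was -0.13 (SE 0.14, edgeR adjusted p = 0.54), and without control day 3 replicate 2 it was -0.25 (edgeR adjusted p = 0.00444). Leaving out replicate 1 of the same pair instead gave 0.03. Without all day 3 libraries, where days 0 and 5 alone are averaged, it was -0.37 (edgeR adjusted p = 0.00158). In that fit 41.3% of all genes tested passed. Beside these chains, the summed level of 8 osteoblast markers, Col1a1 among them, was 8855 and 9572 CPM in control, against 4599 and 4710 CPM under the knockdown label at day 0. On day 3 control held 11170 and 11500 CPM of it, against 9088 and 9214 CPM under the label, and on day 5 it held 21870 and 22470 CPM, against 11770 and 11880 CPM. In the single pair of day 10 the sums were 12530 CPM for control and 12480 CPM for the other library. Of the 8 markers, Col1a1, Sparc, Ibsp and Postn reached 7196, 5194, 8389 and 2976 CPM in a library. Runx2, Sp7, Alpl and Bglap reached at most 180.7, 125.7, 156.1 and 27.1 CPM, so the sum says little about them. The part of this sum in these results was not tested.

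Of the chains of type V collagen, which start fibrils and limit their width, 1 of 3 passed on average. Col5a1 (chr2:27886425-28039514) was at 901 and 966 CPM on day 0, 632 and 527 on day 3, 1015 and 1106 on day 5 and 1021 on day 10 in control. It was at 343 and 333 CPM on day 0, 367 and 393 on day 3, 439 and 513 on day 5 and 612 on day 10 under the knockdown label. Each library labelled knockdown lay below each control library of its day. On average its log2 fold change was -1.08 (SE 0.10, edgeR adjusted p = 6.29e-05), and that of day 0 was -1.46 (SE 0.18, edgeR adjusted p = 0.000953). Col5a2 (chr1:45374321-45503282) was at 1118 and 1043 CPM on day 0, 1141 and 457 on day 3, 1526 and 1447 on day 5 and 1363 on day 10 in control. It was at 864 and 725 CPM on day 0, 1073 and 984 on day 3, 1244 and 1224 on day 5 and 1186 on day 10 under the knockdown label. The label was lower on days 0 and 5 and overlapped control on day 3, where the low control value is that of replicate 2, the library that stood apart. Its averaged log2 fold change was -0.12 (SE 0.20, edgeR adjusted p = 0.695) and became -0.29 without that library and 0.15 without its partner. Without all day 3 libraries it was -0.36 (edgeR adjusted p = 0.0044). Col5a3 (chr9:20770050-20815067) was at 158 and 151 CPM on day 0, 74.1 and 72.4 on day 3, 93.5 and 107 on day 5 and 191 on day 10 in control. It was at 124 and 114 CPM on day 0, 102 and 104 on day 3, 120.1 and 123 on day 5 and 234 on day 10 under the knockdown label, lower at day 0 and higher at days 3 and 5. It had an averaged log2 fold change of 0.13 (SE 0.09, edgeR adjusted p = 0.312).

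Of the type XI chains, which join type II in cartilage fibrils and type V in others, Col11a2 (chr17:34039437-34066685) had the largest averaged fold change of the collagen genes for which a fold is given. Col11a2 was at 0.821 and 0.764 CPM on day 0, 8.61 and 7.49 on day 3, 230.4 and 206 on day 5 and 60.4 on day 10 in control. It was at 1.09 and 0.487 CPM on day 0, 1.26 and 1.06 on day 3, 1.77 and 1.81 on day 5 and 2.03 on day 10 under the knockdown label. The conditions overlapped on day 0, and by day 5 control held 4129 and 2645 reads of the gene against 42 and 27. Averaged over days the log2 fold change was -3.23 (SE 0.18, edgeR adjusted p = 2.06e-06), with -2.78 (SE 0.28, edgeR adjusted p = 0.000378) at day 3 and -6.93 (SE 0.28, edgeR adjusted p = 4.16e-06) at day 5. Col11a1 (chr3:114030540-114220718), its partner, was at 165 and 157 CPM on day 0, 365 and 142 on day 3, 383 and 335 on day 5 and 381 on day 10 in control. It was at 121 and 106 CPM on day 0, 323 and 271 on day 3, 318 and 288 on day 5 and 299.9 on day 10 under the knockdown label, lower on days 0 and 5 and overlapping on day 3. The averaged log2 fold change of Col11a1 was -0.17 (SE 0.20, edgeR adjusted p = 0.56), and became -0.35 without control day 3 replicate 2 and 0.11 without its partner. Without all day 3 libraries it was -0.37 (edgeR adjusted p = 0.00287).

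Col2a1 (chr15:97975602-98004695) encodes type II collagen, the main collagen of cartilage. It was at 75.5 and 79.5 CPM on day 0, 55.3 and 46.1 on day 3, 247 and 263 on day 5 and 89.9 on day 10 in control. It was at 154 and 157 CPM on day 0, 186 and 200.3 on day 3, 159.7 and 176 on day 5 and 78.1 on day 10 under the knockdown label. The libraries labelled knockdown were above control at days 0 and 3 and below it at day 5. The log2 fold change was 1.93 (SE 0.17, edgeR adjusted p = 0.000151) at day 3 and 0.78 (SE 0.09, edgeR adjusted p = 0.000276) on average. At day 0 it was 1.01 (SE 0.16, edgeR adjusted p = 0.00438), and at day 5 it was -0.60 (SE 0.16, edgeR adjusted p = 0.0492). The call of day 0 was lost without control day 0 replicate 1 (edgeR adjusted p = 0.0637), and that of day 5 without any 1 of 10 libraries, all but the control libraries of day 3 (edgeR adjusted p from 0.0891 to 0.299). Of 8 chondrocyte markers, all in the table and Col2a1 and Col9a1 among them, the defining Acan, Chad and Matn1 reached at most 2, 1 and 3 reads in a library. Comp and Matn3 reached 23 and 42 reads, and Sox9 lay between 65.4 and 259.5 CPM. The summed level of the 8 was 149.4 to 373 CPM in control and 211.8 to 344 CPM under the knockdown label.

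Col24a1 (chr3:145292472-145552011) encodes type XXIV collagen, a fibrillar chain of developing bone. It was at 10.4 and 11.6 CPM on day 0, 19.5 and 8.66 on day 3, 24.4 and 27.6 on day 5 and 32.9 on day 10 in control. It was at 2.66 and 2.02 CPM on day 0, 7.63 and 7.63 on day 3, 12.7 and 14.9 on day 5 and 12.3 on day 10 under the knockdown label. Each library labelled knockdown was below each control library of its day. Averaged over days its log2 fold change was -1.35 (SE 0.19, edgeR adjusted p = 0.000718). Col27a1, of type XXVII, a cartilage fibrillar collagen, ranged from 63.3 to 198.4 CPM over all libraries, with an averaged log2 fold change of -0.13 (SE 0.14, edgeR adjusted p = 0.534).

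The 250 bases before the start of the 3 fibrillar genes that were lower on average are shown from RefSeq on GRCm38.p6, since they are the stretch nearest to where transcription of each begins. They read 5′ to 3′ on the strand of the gene, with GC boxes (GGGCGG) and TATA boxes (TATAAA) on either strand in capitals.
Col11a2, chr17:34038888-34039137, plus strand: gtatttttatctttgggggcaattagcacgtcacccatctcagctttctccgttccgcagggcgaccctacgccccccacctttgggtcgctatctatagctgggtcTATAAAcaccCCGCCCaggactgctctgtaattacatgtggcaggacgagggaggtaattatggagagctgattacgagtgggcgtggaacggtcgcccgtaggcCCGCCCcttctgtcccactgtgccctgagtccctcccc
Col24a1, chr3:145292222-145292471, plus strand: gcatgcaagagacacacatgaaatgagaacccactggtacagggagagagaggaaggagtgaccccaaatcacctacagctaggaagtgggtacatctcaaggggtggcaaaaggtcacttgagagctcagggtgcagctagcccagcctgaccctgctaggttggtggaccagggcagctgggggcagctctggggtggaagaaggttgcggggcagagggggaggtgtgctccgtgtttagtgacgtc
Col5a1, chr2:27886175-27886424, plus strand: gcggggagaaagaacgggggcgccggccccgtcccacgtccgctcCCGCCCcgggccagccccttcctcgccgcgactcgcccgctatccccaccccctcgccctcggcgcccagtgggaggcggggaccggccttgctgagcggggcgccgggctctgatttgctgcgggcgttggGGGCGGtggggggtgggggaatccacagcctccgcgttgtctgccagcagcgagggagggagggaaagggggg
The window of Col11a2 held 2 GC boxes and a TATA box, that of Col5a1 held 2 GC boxes, and that of Col24a1 held neither motif. The RefSeq start of Col11a2 lies upstream of the GENCODE gene start given above.

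Network chains form sheets. Type IV is the sheet of basement membranes, and its genes lie in head-to-head pairs. Of the 6 type IV genes, 4 passed the filter on low counts, and each of them had a positive averaged value. Col4a1 (chr8:11198423-11312826) was at 110.5 and 114 CPM on day 0, 65.02 and 27.6 on day 3, 126 and 116 on day 5 and 198 on day 10 in control. It was at 232 and 206 CPM on day 0, 191 and 169 on day 3, 209 and 210.1 on day 5 and 370.0 on day 10 under the knockdown label. It had an averaged log2 fold change of 1.23 (SE 0.18, edgeR adjusted p = 0.000895). Col4a2 (chr8:11312805-11449287), whose chain joins that of Col4a1 in the most common type IV molecule, was at 105 and 122 CPM on day 0, 87.3 and 45.5 on day 3, 109 and 127 on day 5 and 166 on day 10 in control. It was at 194 and 194 CPM on day 0, 185 and 183 on day 3, 205 and 227 on day 5 and 311 on day 10 under the knockdown label. It had an averaged log2 fold change of 1.04 (SE 0.15, edgeR adjusted p = 0.000944), close in size to that of its partner. On each of the 3 days both genes were higher in every library labelled knockdown than in control. The differences of day 3 were 1.95 (SE 0.32, edgeR adjusted p = 0.00537) for Col4a1 and 1.47 (SE 0.27, edgeR adjusted p = 0.00919) for Col4a2, while they became 1.47 and 1.08 without control day 3 replicate 2 and 2.71 and 2.02 without replicate 1. The day 3 call of Col4a2 was lost without either library labelled knockdown of that day (edgeR adjusted p = 0.0604 and 0.0587).

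Col4a6 (chrX:141165403-141474076) was at 63.2 and 62.8 CPM on day 0, 40.7 and 12.6 on day 3, 24.4 and 29.7 on day 5 and 35.6 on day 10 in control. It was at 108 and 111 CPM on day 0, 108 and 97.1 on day 3, 84.5 and 99.3 on day 5 and 71.7 on day 10 under the knockdown label. No library labelled knockdown was as low as any control library of its day. On average the log2 fold change was 1.49 (SE 0.23, edgeR adjusted p = 0.00123), the largest rise among collagen genes with at least 5 CPM on average. At day 3 it was 1.92 (SE 0.40, edgeR adjusted p = 0.0175), and it became 1.33 without control day 3 replicate 2 and 3.02 without replicate 1. That call was lost without either library labelled knockdown of day 3 (edgeR adjusted p = 0.0929 and 0.0778). Its neighbour Col4a5 lay between 17.3 and 107.7 CPM in control and between 88.2 and 101.5 CPM under the knockdown label. Unlike the other 3, Col4a5 was lower under the label on day 0, at -0.23 (edgeR adjusted p = 0.603). It was higher on days 3 and 5, at 1.27 and 0.99, and passed on none of these days. The averaged log2 fold change of Col4a5 was 0.68 (SE 0.25, edgeR adjusted p = 0.0687). With all 14 libraries this averaged value passed in DESeq2, at 0.67 (DESeq2 adjusted p = 0.0253), and without a filter on low counts, at 0.69 (edgeR adjusted p = 0.000105). Without all day 3 libraries it was 0.38 (edgeR adjusted p = 0.00077). It became 0.46 without control day 3 replicate 2 and 1.10 without replicate 1. Col4a3 and Col4a4 had 7 reads and 1 read in all. Of 6 endothelial markers, all in the table, Cdh5, Kdr, Emcn and Tek reached at most 1, 2, 2 and 4 reads in a library. Pecam1 reached 39 reads, 2.26 CPM, and Vwf 34 reads, 1.74 CPM. The summed level of the 6 was 0.771 to 2.51 CPM in control and 1.20 to 3.48 CPM under the knockdown label. Of 6 epithelial markers 5 were in the table, and their sum stood at 1.64 and 1.95 CPM for control, against 50.3 and 51.9 CPM under the knockdown label on day 0 and at most 7.76 and 21.1 CPM on later days, with Krt14 reaching 46.1 CPM and Cdh1 8.06 CPM, or 116 reads, while Krt8, Krt18 and Krt5 stayed at or under 8, 2 and 6 reads in a library. The part of this in the results was not tested.

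The same window before Col4a6 is shown because the gene had that largest rise, with its GC box in capitals.
Col4a6, chrX:141474077-141474326, minus strand: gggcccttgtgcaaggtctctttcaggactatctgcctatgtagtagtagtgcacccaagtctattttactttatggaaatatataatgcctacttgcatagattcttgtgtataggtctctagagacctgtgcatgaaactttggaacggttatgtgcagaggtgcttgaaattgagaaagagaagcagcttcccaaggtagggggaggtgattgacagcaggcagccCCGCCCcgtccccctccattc
No annotated exon lies in any of the 4 windows shown.

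Type VIII and type X chains are short network chains. Col8a1 (chr16:57624258-57754737) and Col8a2 (chr4:126286793-126314330) make type VIII, known from vessel walls and the cornea. Col8a1 was at 53.2 and 43.9 CPM on day 0, 87.8 and 94.3 on day 3, 109.8 and 89.6 on day 5 and 85.6 on day 10 in control. It was at 26.3 and 26.9 CPM on day 0, 72.4 and 71.2 on day 3, 90.4 and 84.5 on day 5 and 53.7 on day 10 under the knockdown label, with an overlap on day 5. Its averaged log2 fold change was -0.47 (SE 0.10, edgeR adjusted p = 0.00733). Col8a2 was at 208 and 221 CPM on day 0, 141 and 198 on day 3, 196 and 206 on day 5 and 242 on day 10 in control. It was at 164 and 144 CPM on day 0, 181 and 165 on day 3, 171 and 170.0 on day 5 and 176 on day 10 under the knockdown label, lower on days 0 and 5 and overlapping on day 3. Its averaged log2 fold change was -0.23 (SE 0.11, edgeR adjusted p = 0.15), and became -0.30 without control day 3 replicate 1 and -0.14 without replicate 2. Without all day 3 libraries it was -0.36 (edgeR adjusted p = 0.0016). Col10a1, the collagen of hypertrophic cartilage, had 0 and 0 reads on day 0, 2 and 0 on day 3, 5 and 2 on day 5 and 256 on day 10 in control. It had 0 and 0 reads on day 0, 8 and 1 on day 3, 19 and 11 on day 5 and 81 on day 10 under the knockdown label. Most of its reads came from the libraries of day 10, and no fold change is given because several libraries held none.

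Of the 7 FACIT chains tested, 6 did not pass the averaged test. Col12a1 and Col16a1, whose products sit on type I fibrils and on several other fibrils respectively, were the only FACIT chains with a mean of at least 1 RPKM. Col12a1 ranged from 287.5 to 1353 CPM in control and from 637 to 917 CPM under the knockdown label. Its averaged log2 fold change was -0.09 (SE 0.23, edgeR adjusted p = 0.813), and became -0.29 without control day 3 replicate 2, the library with the lowest value, and 0.26 without replicate 1. Without all day 3 libraries it was -0.32 (edgeR adjusted p = 0.0171). Col16a1 ranged from 349.8 to 673 CPM in control and from 330.4 to 610.1 CPM under the knockdown label, with an averaged log2 fold change of 0.04 (SE 0.10, edgeR adjusted p = 0.797). At day 5 the control libraries held 362 and 349.8 CPM of Col16a1, against 610.1 and 582 CPM under the knockdown label, a log2 fold change of 0.74 (SE 0.18, edgeR adjusted p = 0.0341). That call was lost without any 1 of 10 libraries, all but the control libraries of day 3 (edgeR adjusted p from 0.0584 to 0.224).

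Col22a1, of type XXII, known from tissue junctions, was the 1 FACIT chain called in the averaged comparison (edgeR adjusted p = 0.00127). It had 25 and 11 reads on day 0, 1 and 1 on day 3, 33 and 19 on day 5 and 64 on day 10 in control. It had 60 and 34 reads on day 0, 35 and 28 on day 3, 49 and 26 on day 5 and 29 on day 10 under the knockdown label. The conditions did not overlap on days 0 and 3, overlapped on day 5 and were reversed in the single pair of day 10. The single reads of control at day 3 leave the size of its fold change undefined. Without all day 3 libraries the call was lost (edgeR adjusted p = 0.0571). The type IX chains decorate cartilage fibrils. Col9a1 had 0 and 0 reads on day 0, 0 and 0 on day 3, 27 and 12 on day 5 and 5 on day 10 in control and 1 read in all under the knockdown label. Its counts were thus nearly all from control at days 5 and 10, and it passed the filter on low counts only through the control libraries of day 5, so it had to differ there and nothing is read from its tests. Col9a2 and Col9a3 had 14 to 67 and 5 to 70 reads per library and did not pass. Col20a1, with 5 to 23 reads per library, did not pass either.

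Transmembrane chains carry a membrane anchor and were near the limit of detection. Col17a1, of epithelial hemidesmosomes, had 2 to 56 reads per library, with an averaged edgeR adjusted p = 0.187. Col23a1 had 0 to 21 reads per library (edgeR adjusted p = 0.962). Col13a1 and Col25a1 had 36 and 5 reads in all.

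Type VI collagen makes beaded filaments around cells and is the most abundant of the other chains. Col6a1 (chr10:76708792-76726168) was at 3581 and 3734 CPM on day 0, 2311 and 1811 on day 3, 2238 and 2421 on day 5 and 1943 on day 10 in control. It was at 1753 and 1692 CPM on day 0, 1785 and 1770.5 on day 3, 1960.2 and 2169 on day 5 and 2028 on day 10 under the knockdown label. The control libraries of day 0 were the highest of the 14. Averaged over days the log2 fold change was -0.49 (SE 0.11, edgeR adjusted p = 0.00943), and it missed the threshold in limma on log2 RPKM, at -0.39 with either pseudocount (limma adjusted p = 0.0520 and 0.0519). Col6a2 (chr10:76595762-76623630) was at 2684 and 2564 CPM on day 0, 1768 and 1277 on day 3, 1889 and 1793 on day 5 and 1577 on day 10 in control. It was at 1214 and 1071 CPM on day 0, 1165 and 1091 on day 3, 1283 and 1168 on day 5 and 1215 on day 10 under the knockdown label. On average its log2 fold change was -0.74 (SE 0.12, edgeR adjusted p = 0.00145). On days 0, 3 and 5 each library labelled knockdown lay below each control library for both genes, and in the single pair of day 10 only Col6a2 did. At day 0 the log2 fold changes were -1.09 (SE 0.19, edgeR adjusted p = 0.0074) for Col6a1 and -1.20 (SE 0.21, edgeR adjusted p = 0.00596) for Col6a2. The call of day 0 was lost for Col6a1 without any 1 of the 4 libraries of that day (edgeR adjusted p from 0.0521 to 0.0875), and for Col6a2 without control replicate 1 (edgeR adjusted p = 0.0547) or knockdown replicate 2 (edgeR adjusted p = 0.0855).

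Col6a3 (chr1:90765923-90843971), the long chain of the same molecule, did not pass the averaged test. It was at 782 and 907 CPM on day 0, 626 and 293 on day 3, 724 and 803 on day 5 and 584 on day 10 in control. It was at 579 and 578 CPM on day 0, 727 and 714 on day 3, 751 and 841 on day 5 and 627 on day 10 under the knockdown label. The averaged log2 fold change was 0.05 (SE 0.17, edgeR adjusted p = 0.843), with -0.10 (edgeR adjusted p = 0.258) without control day 3 replicate 2, 0.27 (edgeR adjusted p = 0.00491) without replicate 1 and -0.24 (edgeR adjusted p = 0.0302) without all day 3 libraries. Col6a4, Col6a5 and Col6a6 had 28, 30 and 39 reads in all.

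The basement membrane zone chains outside type IV split by direction. Col18a1 (chr10:77052178-77166548), of type XVIII, the source of endostatin, was at 31.5 and 28.8 CPM on day 0, 24.5 and 21.1 on day 3, 26.7 and 28.03 on day 5 and 52.00 on day 10 in control. It was at 69.03 and 69.2 CPM on day 0, 61.04 and 60.1 on day 3, 58.5 and 69.9 on day 5 and 121 on day 10 under the knockdown label. The conditions did not overlap on any day, and the log2 fold changes of days 0, 3 and 5 were 1.20, 1.40 and 1.23, each kept in every alternative setting. The averaged value was 1.28 (SE 0.10, edgeR adjusted p = 1.07e-05). Col15a1 (chr4:47208161-47313167), of the related type XV, was at 14.7 and 16.5 CPM on day 0, 11.4 and 4.55 on day 3, 17.8 and 16.4 on day 5 and 21.8 on day 10 in control. It was at 5.70 and 6.26 CPM on day 0, 6.82 and 5.23 on day 3, 8.70 and 7.52 on day 5 and 12.2 on day 10 under the knockdown label. It was lower at days 0 and 5, overlapped at day 3, and had an averaged log2 fold change of -0.97 (SE 0.20, edgeR adjusted p = 0.0057). Col7a1 (chr9:108953586-108984875), of the anchoring fibrils below epithelia, was at 4.36 and 3.41 CPM on day 0, 3.28 and 3.96 on day 3, 3.52 and 3.43 on day 5 and 2.20 on day 10 in control. It was at 6.78 and 3.41 CPM on day 0, 7.78 and 6.43 on day 3, 8.996 and 7.38 on day 5 and 6.56 on day 10 under the knockdown label. It overlapped control on day 0 and was higher on the other days, with an averaged log2 fold change of 0.88 (SE 0.19, edgeR adjusted p = 0.00793). The part of the epithelial markers given above in this difference was not tested.

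Col28a1, of type XXVIII, had 64 and 60 reads on day 0, 12 and 5 on day 3, 42 and 37 on day 5 and 24 on day 10 in control. It had 34 and 25 reads on day 0, 28 and 14 on day 3, 13 and 12 on day 5 and 11 on day 10 under the knockdown label. Its averaged log2 fold change was -0.83 (SE 0.21, edgeR adjusted p = 0.0177), and the call was lost without control day 5 replicate 2 or without knockdown day 0 replicate 2, day 3 replicate 2 or day 5 replicate 1 (edgeR adjusted p from 0.0503 to 0.0595). Col26a1 had 7 reads in all.

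The single days called fewer genes. On day 0, 2 collagen genes were higher and 6 lower, 23.5% of the 34 against 7.09% of all genes tested (4.41% higher and 2.68% lower). On day 3, 6 were higher and 1 was lower, 20.6% against 12.6% (7.06% higher and 5.52% lower). On day 5, 4 were higher and 5 lower, 26.5% against 7.78% (5.32% higher and 2.47% lower). Called on day 0 were Col2a1 and Col18a1 as higher and Col5a1, Col6a1, Col6a2, Col8a1, Col15a1 and Col24a1 as lower. On day 3 these were Col2a1, Col4a1, Col4a2, Col4a6, Col18a1 and Col22a1 as higher and Col11a2 as lower. On day 5 they were Col4a6, Col7a1, Col16a1 and Col18a1 as higher and Col2a1, Col5a1, Col11a2 and Col28a1 as lower, while the fifth lower gene is Col9a1, whose call is not read; without it, a count added after the values were seen, 24.2% of 33 were called. Of these calls, Col18a1 on each day, Col5a1 on day 0, Col11a2 on days 3 and 5, and Col2a1, Col4a1 and Col22a1 on day 3 were kept in each of the 12 fits without a library, and each of the others was lost in at least 1 of them. Col15a1 on day 0 and Col4a6 on day 5 were lost in 10 of the 12 fits, and Col7a1 on day 5 in 8. The median log2 fold change of the 34 moved from -0.40 at day 0 to 0.36 at day 3 and 0.10 at day 5, beside 0.03, 0.01 and 0.01 over all genes. The differences between days in these medians were not tested. Higher in every library labelled knockdown than in control on each of days 0, 3 and 5 were 4 genes, Col4a1, Col4a2, Col4a6 and Col18a1. Another 4 were lower on each of those days, namely Col5a1, Col6a1, Col6a2 and Col24a1. Over all genes tested 13.7% were higher and 9.55% lower in this way, so 4 of 34 in each direction is near that background.

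These counts depended on the pair of control libraries of day 3. Without replicate 2, 23 collagen genes were called at day 0, 6 higher and 17 lower, 14 at day 3, 8 higher and 6 lower, and 17 at day 5, 9 higher and 8 lower. The share of all genes called was then 28.7% (15.8% higher and 12.9% lower), 21% (11.9% and 9.18%) and 31.5% (16.6% and 14.9%). Without replicate 1 the counts also rose on each day, and so did the share of all genes called. On day 3 that share was then higher over all genes than among collagen genes. Without any 1 of the other 10 libraries of days 0 to 5 the counts were at or below those with all libraries, and the share of all genes called was lower too. The common dispersion, a measure of the spread shared by all groups, was 0.0474 with all libraries, 0.0115 without either control library of day 3, and 0.0544 to 0.0552 without any 1 of the others.

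Within control, day 5 was compared with day 0 to follow the culture over time. At day 5, 5 collagen genes were higher and 1 was lower, 17.6% of the 34 against 8.13% of all genes (4.32% higher and 3.82% lower). Col11a2 rose most, by 8.09 (SE 0.31, edgeR adjusted p = 1.09e-06) on the log2 scale. Col2a1 rose by 1.72 (SE 0.17, edgeR adjusted p = 0.000235), Col8a1 by 1.04 (SE 0.17, edgeR adjusted p = 0.0052) and Col24a1 by 1.24 (SE 0.32, edgeR adjusted p = 0.0412). The fifth gene counted as higher was Col9a1, with 0 reads in both libraries of day 0 and 27 and 12 at day 5, whose call is not read for the reason given above; without it 15.2% of 33 were called. Col5a3 was the gene that fell, with -0.62 (SE 0.15, edgeR adjusted p = 0.0349). The calls of Col11a2 and Col2a1 held without each library in turn. That of Col8a1 was lost without control day 0 replicate 2 or day 5 replicate 1 (edgeR adjusted p = 0.0825 and 0.0729). Those of Col24a1 and Col5a3 were lost without any 1 of 10 libraries, all but the control libraries of day 3 (edgeR adjusted p from 0.0680 to 0.284).

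**Figure D4:**
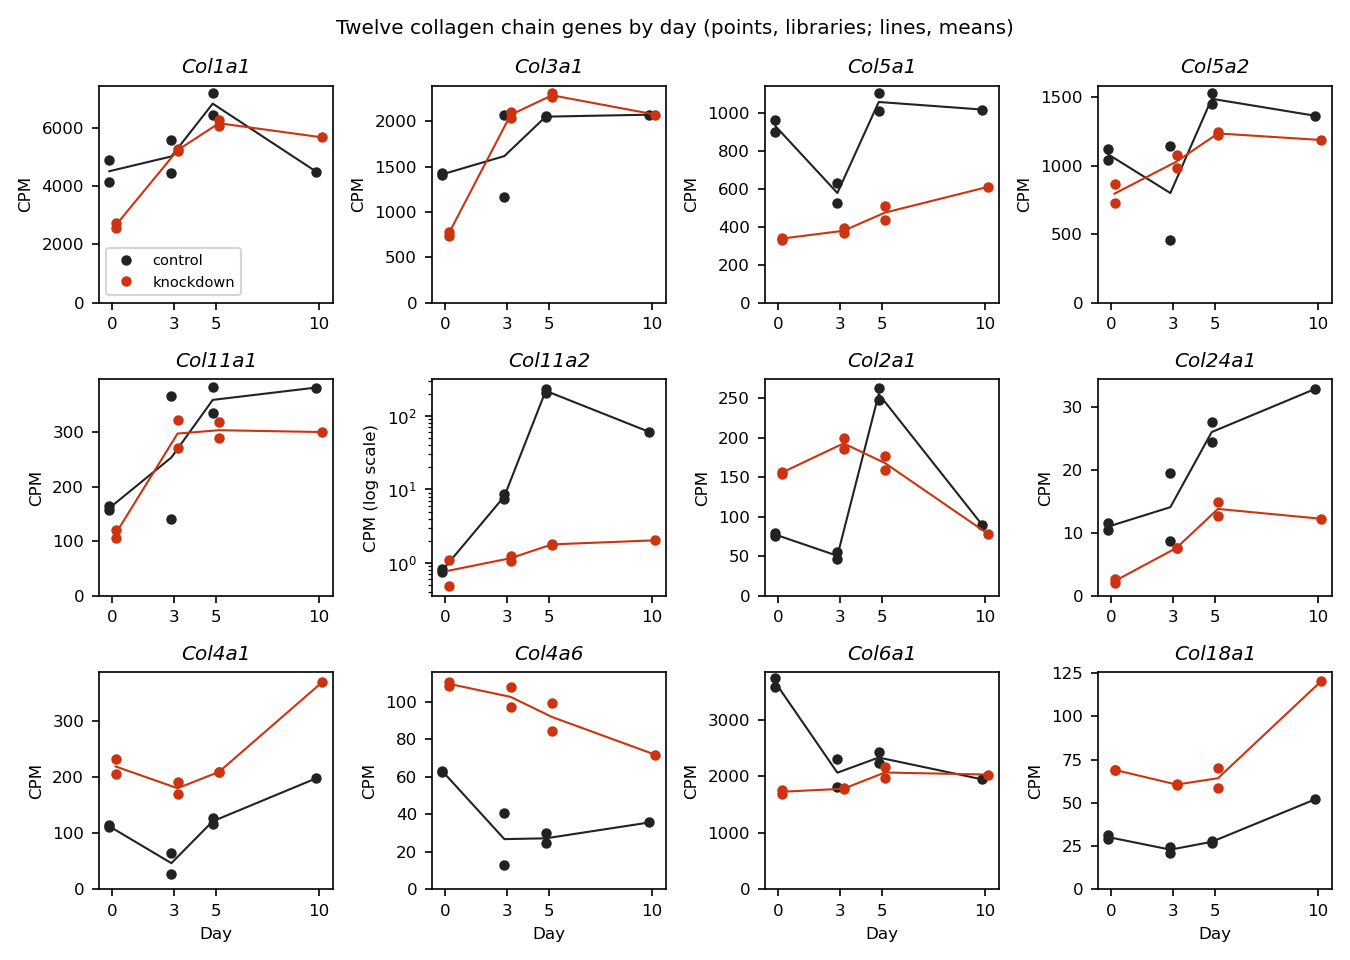
CPM of 12 collagen genes by day in control (black) and in the libraries labelled knockdown (red); points are libraries, lines join means, and the Col11a2 axis is logarithmic. Col11a2 reaches 230.4 and 206 CPM in control at day 5 against 1.77 and 1.81 CPM under the knockdown label, while Col3a1 starts lower under the label at day 0 and lies above control by day 5.

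Among the libraries labelled knockdown 5 collagen genes were higher at day 5 than at day 0 and none lower, 14.7% of the 34 against 2% of all genes (1.45% higher and 0.548% lower). Col24a1 rose by 2.55 (SE 0.35, edgeR adjusted p = 0.00641) and Col8a1 by 1.72 (SE 0.18, edgeR adjusted p = 0.00103). Col3a1 rose by 1.59 (SE 0.25, edgeR adjusted p = 0.0135), Col1a1 by 1.22 (SE 0.21, edgeR adjusted p = 0.0163) and Col27a1 by 1.18 (SE 0.25, edgeR adjusted p = 0.0426). The call of Col8a1 held without each library in turn. Those of Col1a1 and Col3a1 were lost without any 1 of the 4 libraries labelled knockdown of days 0 and 5 (edgeR adjusted p from 0.102 to 0.207), and that of Col24a1 without any 1 of them but day 5 replicate 1 (edgeR adjusted p from 0.0598 to 0.112). That of Col27a1 was lost without any 1 of 10 libraries, all but the control libraries of day 3 (edgeR adjusted p from 0.0715 to 0.385). Without control day 3 replicate 2, which is in neither course, 17 collagen genes were called in the control course, 10 higher and 7 lower, against 31.6% of all genes (17% and 14.5%), and 16 in the other, 14 higher and 2 lower, against 15.6% (8.01% and 7.56%). Without replicate 1 the counts were also 17 and 16, against 31.5% and 15.5%. Without any 1 of the other 10 libraries both counts were lower than with all libraries, and so was the share of all genes called.

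Whether the change from day 0 to day 5 differed between conditions was tested as a difference of the log2 changes. It passed for 2 collagen genes, 5.88% of the 34 against 1.36% of all genes (0.8% positive and 0.564% negative), and both were negative. Col11a2 differed by -6.96 (SE 0.46, edgeR adjusted p = 0.000152), kept without each library in turn. Col2a1 differed by -1.61 (SE 0.23, edgeR adjusted p = 0.00801), and the call was lost without any 1 of the 8 libraries of days 0 and 5 but knockdown day 5 replicate 2 (edgeR adjusted p from 0.0523 to 0.0696). The median over the 34 genes was 0.32, beside -0.02 over all genes. Without control day 3 replicate 2 the test called 16 collagen genes, 14 of them positive and 2 negative, against 10.1% of all genes (5.07% and 5%), and without replicate 1 it also called 16, against 9.9%. Without any 1 of the other libraries it called no more collagen genes than with all libraries, and a smaller share of all genes.

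Ratios between chains that assemble together were read from RPKM in each library, as values with no test. The RPKM ratio of Col1a2 to Col1a1 was above 1 in all 14 libraries. It was 1.65 and 1.57 in control at day 0, 2.19 and 2.15 under the knockdown label at day 0, and 1.05 to 1.80 in the others. The height of such a ratio depends on the gene lengths used for RPKM, while its differences between libraries do not. GENCODE exons cover 12426 bases for Col1a2 and 6563 for Col1a1, and which lengths the deposited values used was not checked. The ratio is therefore not read as the make-up of the type I molecule. Col5a1 over Col5a2 was 0.436 to 0.909 in control and 0.269 to 0.407 under the knockdown label, so the conditions did not overlap. Col6a1 over Col6a3 was 7.98 to 16.4 in control, with the highest value in control day 3 replicate 2, and 6.50 to 8.56 under the label. Col4a6 over Col4a5 was 0.469 to 0.716 in control and 0.779 to 1.24 under the label, again with no overlap. Col4a1 over Col4a2 lay between 0.592 and 1.17 in all libraries. Col6a1 over Col6a2 was 1.74 to 2.13 in control and 2.12 to 2.72 under the label. Col8a1 over Col8a2 was 0.168 to 0.529 in control and 0.136 to 0.4475 under the label, so the conditions overlapped in both pairs. Col11a2 over Col11a1 was at most 0.0106 under the label and rose in control from 0.00609 and 0.00615 at day 0 to 0.732 and 0.748 at day 5.

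**Figure D5:**
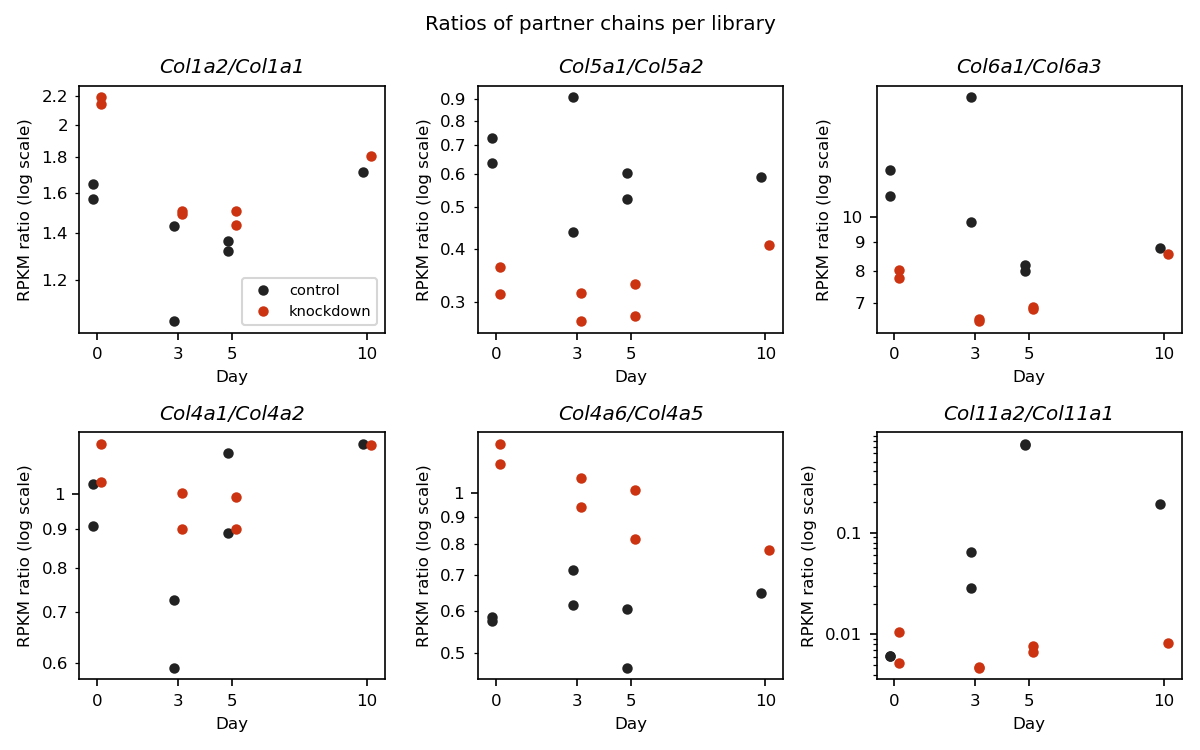
Ratio of RPKM between partner chains in each library by day, on log axes, for control (black) and the libraries labelled knockdown (red). Col5a1/Col5a2 lies between 0.269 and 0.407 under the label and between 0.436 and 0.909 in control, and Col4a6/Col4a5 separates the conditions in the other direction.

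The genes lie on 15 chromosomes, with positions given from GENCODE on GRCm38. Their exon lengths ran from 3095 to 15228 bases with a median of 7542. Several partners adjoin each other. Col4a1 and Col4a2 start 21 bases apart on opposite strands and overlap by 22 bases. Col4a3 and Col4a4 start 72 bases apart and Col4a5 and Col4a6 start 1309 bases apart, both also head to head. Col3a1 and Col5a2 lie tail to tail with 24614 bases between them, and Col6a1 and Col6a2 lie on the same strand with 85161 bases between them. In all, 18 of the 44 overlap an annotated gene on the other strand and 15 overlap one on the same strand. The strand setting of the counting is not given in the sources used here, so reads over such shared stretches cannot be assigned with certainty.

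Promoter windows were found in RefSeq for 35 of the 44 genes, 32 of them with a single entry. Over the 250 bases before the start, on both strands, the GC box GGGCGG was in 59.4% of the 32 windows and in 32.7% of 32851 windows of all genes. The TATA box TATAAA was in 15.6% against 12.4%, and CCAAT in 34.4% against 33.8%. TGTGGT, a core bound by Runx factors, was in 6.25% against 14.0%, and CTTTGA, a core bound by Lef and Tcf factors, in 21.9% against 13.8%. None of these motifs contains another. These are matches of letters and not measured sites.

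The proteins that process collagen gave counts from 7 lists, to be read beside the 26.9% of all genes tested that were called in the averaged comparison (15% higher and 11.9% lower). Of 15 genes tested that modify proline and lysine on new chains, 8 were lower in the averaged comparison, 2 higher and 5 did not pass, with a median log2 fold change of -0.45 beside 0.00 over all genes. The prolyl 4-hydroxylase subunits P4ha2 and P4ha1 were at -1.24 (SE 0.09, edgeR adjusted p = 7.61e-06) and -0.74 (SE 0.11, edgeR adjusted p = 0.00127). Ppib, the cyclophilin of the prolyl 3-hydroxylase complex, was at -0.97 (SE 0.15, edgeR adjusted p = 0.00133), while P3h2, a prolyl 3-hydroxylase known for acting on type IV chains, was at 1.46 (SE 0.19, edgeR adjusted p = 0.000495). Of 14 folding and secretion genes 4 were lower and 1 higher, with a median of -0.18. Serpinh1, the collagen chaperone Hsp47, was at -0.47 (SE 0.11, edgeR adjusted p = 0.00961), and missed the threshold in limma on log2 RPKM (limma adjusted p = 0.0671 and 0.0668). Creb3l1, a factor that drives collagen secretion genes in osteoblasts, was at -0.93 (SE 0.10, edgeR adjusted p = 9.89e-05), Pdia3, a disulfide isomerase, at -0.49 (SE 0.11, edgeR adjusted p = 0.0105) and Trappc2, needed for export of procollagen, at 0.76 (SE 0.17, edgeR adjusted p = 0.0104).

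Of 5 propeptide removal genes tested 2 were lower and 1 higher, with a median of -0.35. Adamts2, which cuts the N-terminal propeptides of fibrillar collagens, was at -1.98 (SE 0.10, edgeR adjusted p = 7.63e-07). Pcolce, an enhancer of C-terminal cutting, was at -0.93 (SE 0.18, edgeR adjusted p = 0.00404), and its relative Pcolce2 at 3.68 (SE 0.11, edgeR adjusted p = 8.75e-08). Of the 5 cross-linking oxidases 2 were lower and none higher, with a median of -0.33. Loxl1 was at -1.34 (SE 0.10, edgeR adjusted p = 1.21e-05). Loxl3 was at -0.33 (SE 0.10, edgeR adjusted p = 0.0292), a call lost in 9 of 12 fits without a library (edgeR adjusted p from 0.0605 to 0.0951) and kept only without control day 0 replicate 1 or either control library of day 3.

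Of 7 collagen receptors tested 3 were higher and 3 lower, with a median of 0.20. The integrin chains Itga10 and Itga1 were at 1.47 (SE 0.13, edgeR adjusted p = 3.20e-05) and -1.46 (SE 0.16, edgeR adjusted p = 0.000162). Itga10 was at 3.19 (SE 0.24, edgeR adjusted p = 4.61e-05) on day 0 and 0.40 (SE 0.21, edgeR adjusted p = 0.319) on day 5, and its change from day 0 to day 5 differed by -2.79 (SE 0.32, edgeR adjusted p = 0.0022). Itga1 was at -3.59 (SE 0.30, edgeR adjusted p = 9.19e-05) on day 0 and 0.00 (SE 0.27, edgeR adjusted p = 0.998) on day 5, and its change differed by 3.59 (SE 0.40, edgeR adjusted p = 0.00207). On average Itga11 was at -0.71 (SE 0.17, edgeR adjusted p = 0.0124) with limma adjusted p = 0.0678 and 0.0817 on log2 RPKM, and the receptor kinase Ddr2 was at 0.61 (SE 0.13, edgeR adjusted p = 0.0068). Of 8 small proteoglycans that bind fibrils 3 were higher and 2 lower, with a median of 0.23. Decorin, Dcn, was at 1.45 (SE 0.10, edgeR adjusted p = 8.28e-06), osteoglycin, Ogn, at 0.62 (SE 0.15, edgeR adjusted p = 0.013), fibromodulin, Fmod, at -2.07 (SE 0.10, edgeR adjusted p = 9.20e-07) and Prelp at -1.59 (SE 0.10, edgeR adjusted p = 5.02e-06). Ogn was at -0.96 (SE 0.26, edgeR adjusted p = 0.0562) on day 0 and 2.14 (SE 0.27, edgeR adjusted p = 0.001) on day 5, with opposite signs, and its change differed by 3.10 (SE 0.37, edgeR adjusted p = 0.00309). Fmod and Prelp were at -3.01 and -2.55 on day 0 and at -1.67 and -1.06 on day 5, and their changes differed by 1.34 (SE 0.24, edgeR adjusted p = 0.0264) and 1.49 (SE 0.25, edgeR adjusted p = 0.0174). Of 11 basement membrane partners of type IV collagen 3 were lower, with a median of 0.10. Nid1, which links laminin to type IV, was at -3.33 (SE 0.20, edgeR adjusted p = 3.47e-06), and the laminin chains Lamb1 and Lama4 at -0.67 (SE 0.10, edgeR adjusted p = 0.000858) and -0.60 (SE 0.13, edgeR adjusted p = 0.00808), the second with limma adjusted p = 0.0617 and 0.0641 on log2 RPKM.

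At day 10 each condition had 1 library, so no test was made. Of the 33 collagen genes with over 3 reads in both libraries, 5 had a ratio above 2 and 3 a ratio below 0.5, against 7.61% and 3.92% of all genes with such reads. Above 2 were Col17a1 at 4.88, Col7a1 at 2.98, Col23a1 at 2.83, Col18a1 at 2.32 and Col4a6 at 2.02. Col17a1 and Col23a1 rested on 13 and 56 and on 6 and 15 reads. Below 0.5 were Col11a2 at 0.0336, Col10a1 at 0.359 and Col24a1 at 0.372. Col1a1, Col1a2 and Col3a1 were at 1.26, 1.33 and 1.0.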

How the data were processed

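The 14 libraries of RNA from MC3T3-E1 cells were put into 8 groups by the condition and day in their labels. Per the labels' protocols, RNA was DNase treated, selected with oligo(dT) beads and made into directional libraries. The submitters' processing notes name bcl2fastq, TopHat2, edgeR and the build GRCm38. Which counting tool, strand setting and annotation release were used is not given in the sources used here. Raw counts of reads on 24346 genes and RPKM values of 24340 genes are used as deposited.

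The 44 genes, their classes and the lists of pathway genes were chosen with earlier results of these data known. Counts were scaled with TMM and tested with the robust quasi-likelihood F test of edgeR 4.0.16 in R 4.3.3, with 1 mean for each of 8 groups and 6 residual degrees of freedom. Genes needed at least 10 counts in at least 2 libraries, which left 13130, and p-values were adjusted over these by Benjamini-Hochberg with a threshold of 0.05. The SE is the size of the log2 fold change divided by the square root of F. CPM was computed from the counts with TMM, and levels between genes were read from the RPKM as deposited. The procedure was also run on simulated data in which no library stood apart, so that run does not cover the case of control day 3 replicate 2. Totals of 8044687 to 23301514 counts per library set the precision of low counts, and where a compared library held 3 or fewer reads, reads are given in place of a fold.

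Values per library were given for the 6 genes with the highest mean RPKM, for genes with at least 5 CPM on average that passed in the averaged comparison, the control course or the difference of courses (up to 4 per class, by size of the log2 fold change), and for their partner chains. Up to 4 called genes were named per pathway list, by adjusted p. The result of 1 gene of the pathway lists is not reported here. Genes outside this rule, among them Col4a5, Col9a1, Col10a1, Col16a1, Col22a1 and Col28a1, were named after their values were seen.

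The study calls the libraries of a pair biological replicates. Same-numbered libraries of both conditions deviated together on each day (correlations of deviations 0.329, 0.158 and 0.326 for days 0, 3 and 5). Replicate 1 also had the larger total of counts in every pair, and whether the numbers mark paired samples was not tested. The main test therefore has no block, and the fit with the number as a block is an alternative. Other alternatives were RLE scaling, no filter, a filter in at least 4 libraries, DESeq2 1.42.0, limma 3.58.1 on log2(RPKM + 1) and log2(RPKM + 0.1), leaving out each library of days 0, 3 and 5 in turn, and leaving out day 3 or day 10. Positions are from GENCODE on GRCm38, and promoter windows from RefSeq on GRCm38.p6. No protein sequences were used here.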

Additional observations from a re-analysis of the deposited data

Results flagged for a closer look

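Col11a2 and Col2a1 were singled out because the change from day 0 to day 5 differed between the conditions by the test of that difference. For Col11a2 the difference, libraries labelled knockdown minus control, was -6.96 on the log2 scale (SE 0.46, edgeR adjusted p = 1.52e-04). It rests on 13 and 11 reads at day 0 and 4129 and 2645 at day 5 in control, and on 20 and 7 and then 42 and 27 under the knockdown label. For Col2a1 the difference was -1.61 (SE 0.23, edgeR adjusted p = 0.00801), with an adjusted p from 0.0523 to 0.0696 in 7 of the 12 fits that leave out a library.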

How the results depend on the processing

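Of the 13 averaged calls of collagen genes with at least 5 CPM on average, 12 were kept in all 21 alternative fits, and Col6a1 was lost only in limma on log2 RPKM. With the replicate number as a block (replicate block), the counts of called collagen genes were 16 for the average, 10, 9 and 8 for days 0, 3 and 5, 8 and 5 for the control and knockdown courses and 3 for their difference, beside 29.8%, 8.48%, 14.2%, 9.73%, 10.2%, 2.53% and 1.57% of all genes tested. Of the calls made without it, the block ended only those of Col9a1, which are not read, and among averaged values of genes with at least 5 CPM it added Col1a1; it changed no other such call. Without a filter, day 0 called 13, day 3 called 12, and the courses 10 and 8, beside 5.09%, 11.6%, 6.17% and 2.09% of all genes. DESeq2 called 14, 11, 10 and 10 in the same comparisons and 5 in the difference of courses, beside 11.2%, 21.4%, 12.8%, 4.66% and 2.88%. Without all day 3 libraries, day 0 called 23, day 5 called 17, the courses 18 and 16, and their difference 16, beside 28.5%, 31.3%, 31.3%, 15.1% and 9.46%; the cause of the other changes was not tested. Leaving out 1 library gave 14 to 21 for the average, 3 to 24, 5 to 18 and 2 to 17 for days 0, 3 and 5, 2 to 17 and 1 to 16 for the courses, and 1 to 16 for their difference, beside 18.2% to 57.9%, 2.80% to 28.7%, 2.73% to 58.8%, 2.57% to 31.5%, 2.52% to 31.6%, 0.275% to 15.6% and 0.427% to 10.1% of all genes. The fibrillar share averaged 70.4% and ranged from 70.0% to 71.3% without 1 library, and was 23.1% without Col1a1, Col1a2 and Col3a1. Changes of sign were seen only in averaged values that had not passed with all libraries, and not all of the changed values were small. Col1a2 became -0.0106 (RLE), -0.0107 (DESeq2), -0.0203 (at least 4 libraries), -0.0193 (without day 10) and -0.17 (without day 3). Without day 3 Col5a3 became -0.0511 and Col6a3 -0.24, where Col6a3 passed (edgeR adjusted p = 0.0302). In limma Col5a2 became 0.0262 and 0.0276 and Col12a1 0.0782 and 0.0841, with pseudocounts of 1 and 0.1. Leaving out 1 library moved Col1a2 from -0.0352 to 0.0327, Col3a1 from -0.25 to 0.0272, Col5a2 from -0.29 to 0.15, Col6a3 from -0.10 to 0.27, Col11a1 from -0.35 to 0.11, Col12a1 from -0.29 to 0.26 and Col16a1 from -0.0027 to 0.0886. For Col3a1, Col5a2, Col6a3, Col11a1 and Col12a1 the low end was without control day 3 replicate 2 and the high end without replicate 1. The direction of these genes thus depended on which library of that pair was kept. Low depth limits the 20 genes under 1 RPKM, and 10 of them were not tested.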
